A study of Homo sapiens with 8 samples.

Results

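A set of 10 genes that mark whether a cell is in an epithelial or a mesenchymal state were followed in A549 cells exposed to EEDS or to helveticoside. They were chosen by symbol, with earlier results of these data known. CDH1, EPCAM and ESRP1 stand on the epithelial side and CDH2 and VIM on the mesenchymal side. The others are the transcription factors SNAI1, SNAI2, ZEB1, ZEB2 and TWIST1. All 10 were found among the 19056 genes matched on the arrays, by the transcript accession given for each probe. A549 is an established line from a human lung carcinoma, EEDS is an ethanol extract of Descurainia sophia seeds, and helveticoside is a cardiac glycoside present in it. The EEDS series held a control array and arrays at 1.25, 5 and 20 μg/mL, and the helveticoside series a separate control and doses of 3.75, 15 and 60 nM. The exposure time in the study's methods differs from the one in the labels' treatment protocol, which also covers a viability assay, so no time is given here. Each array was hybridized with RNA pooled from triplicate cultures, so each dose had 1 array, no replicate error was available, and a ratio at a single dose has no p-value.

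In epithelial cells, E-cadherin (the product of CDH1) joins neighbouring cells at adherens junctions, and EPCAM and the splicing regulator ESRP1 accompany it. In mesenchymal cells, N-cadherin (CDH2) takes its place and vimentin (VIM) forms the intermediate filaments. SNAI1, SNAI2, ZEB1 and ZEB2 are zinc finger repressors that bind E-boxes in epithelial genes, CDH1 among them, and TWIST1 is a basic helix-loop-helix factor. Lung carcinoma lines are known to hold features of both states.

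The values below are scanner signals with the background subtracted, quantile-normalized over all 8 arrays. A signal is called well above background as the scanner software called it, and 54.5% to 64.9% of the probes passed on an array. Levels of different genes come from different probes and were not compared. A log2 ratio sets a dose against the control array of its own series. Where 1 of the 2 arrays was not well above background, only a bound is given, with the dim array at the higher of its own signal and the lowest signal that was well above background there. The median background-uncorrected signal of the probe spots was 182 to 278 per array over a local background of 27 to 34, and no probe spot was saturated.

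CDH1 was the only one of the 10 genes that was more than 2-fold lower at any dose, and it was lower with both agents. Its signal was 963 on the EEDS control, 734 at 1.25 μg/mL, 194 at 5 μg/mL and 148 at 20 μg/mL. In the helveticoside series it was 825 on the control, 925 at 3.75 nM, 288 at 15 nM and 126 at 60 nM. The lowest dose of helveticoside was thus no lower than its control, and the main step down lay between the lowest and the middle dose of both series. At the top doses CDH1 was 6.52-fold lower with EEDS and 6.54-fold lower with helveticoside (log2 ratios of -2.70 and -2.71). In RNA from whole cultures, fewer cells with a transcript and less of it per cell cannot be told apart.

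CDH1 was measured by 1 probe printed in 10 spots on each array, which gives the error within an array. With outlier spots left out, the SD over 9 or 10 spots was 26.0 around a mean of 962 on the EEDS control and 10.6 around a mean of 147 at 20 μg/mL. The highest spot at 20 μg/mL (168) lay below the lowest spot at 5 μg/mL (184). At 60 nM helveticoside the spots ran from 108 to 153, all below the range of 260 to 356 at 15 nM. These spots share 1 RNA pool, so they do not cover the spread between cultures.

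**Figure D1:**
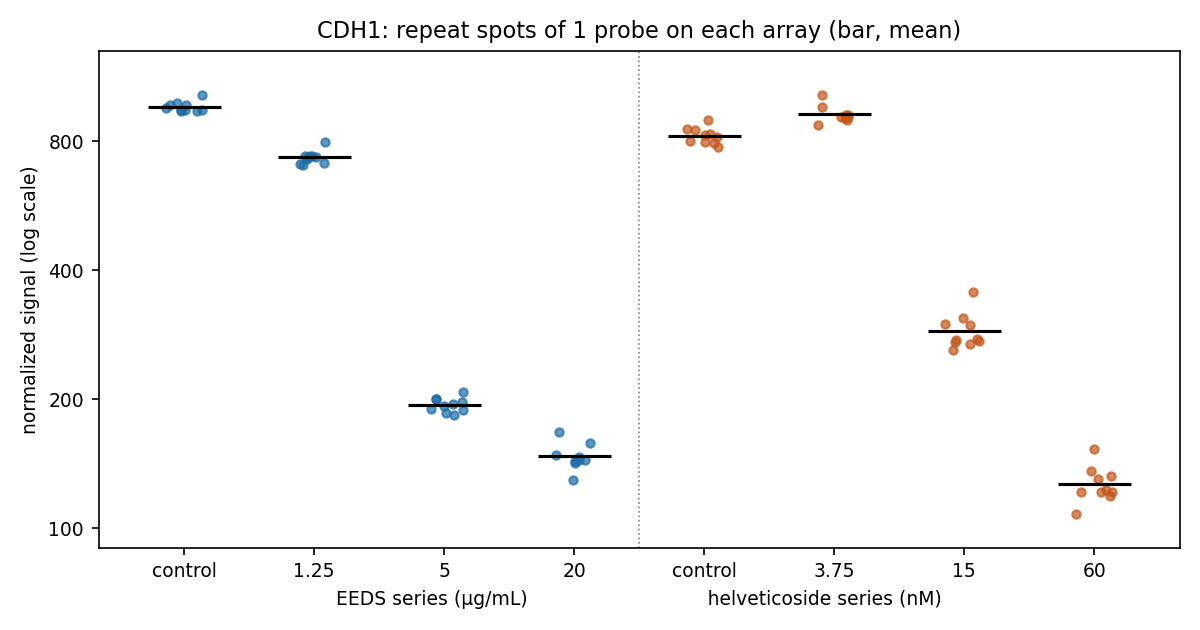
Normalized signal of the repeat spots of the CDH1 probe (vertical, log scale) on each of the 8 arrays, by dose of EEDS (μg/mL, blue) and helveticoside (nM, orange), with bars at the mean of 9 or 10 spots. The spots fall from about the level of the controls to means of 147 at 20 μg/mL and 127 at 60 nM.

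EPCAM, an epithelial adhesion molecule, did not follow CDH1. Its signal was 667, 762, 621 and 688 from the EEDS control to the top dose, and 627, 762, 450 and 524 from the helveticoside control to the top dose. All 8 arrays were well above background, and the largest difference from a control was a log2 ratio of -0.48, at 15 nM helveticoside. The values showed no steady order with dose in either series.

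ESRP1, which directs the epithelial pattern of splicing, was dim and higher at the higher doses of both agents. Its signal was 19.9 on the EEDS control, which was not well above background, then 28.6, 44.0 and 53.3 at the rising doses. With helveticoside it was 39.7 on the control and 57.4 at 3.75 nM, neither well above background, then 82.6 and 103 at 15 and 60 nM. Against the control it was higher by at least 2.27-fold with 20 μg/mL EEDS and at least 2.19-fold higher at 60 nM helveticoside. These bounds hold for this processing only. Over 8 alternatives the ratio ran from 1.25-fold to 2.83-fold with EEDS and from 1.51-fold to 5.18-fold with helveticoside. The controls of the 2 series themselves differed by 1.0 on the log2 scale for this gene. Among the probes that stood for the 10 genes, this was the largest such difference.

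CDH2 was bright on all arrays and moved little. By the probe that stood for the gene the signal was 7489, 7476, 9003 and 9150 from the EEDS control to 20 μg/mL, and 6243, 6777, 7843 and 9658 from the helveticoside control to 60 nM. At the top doses the log2 ratios were 0.29 and 0.63. A second probe, with 2046 on the EEDS control and 2099 on the helveticoside control, gave 0.51 and 0.49.

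VIM had a signal of 175875 on the EEDS control and 117863, 118788 and 113581 at the rising doses. In the helveticoside series it was 135081 on the control, 163931 at 3.75 nM, 123438 at 15 nM and 134313 at 60 nM. All 3 EEDS arrays were lower than their control, by a log2 ratio of -0.57 to -0.63, with no further change from dose to dose. Against the helveticoside control the same arrays gave -0.20, -0.19 and -0.25, so the size rests on 1 control array. The helveticoside arrays lay on either side of their control.

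**Figure D2:**
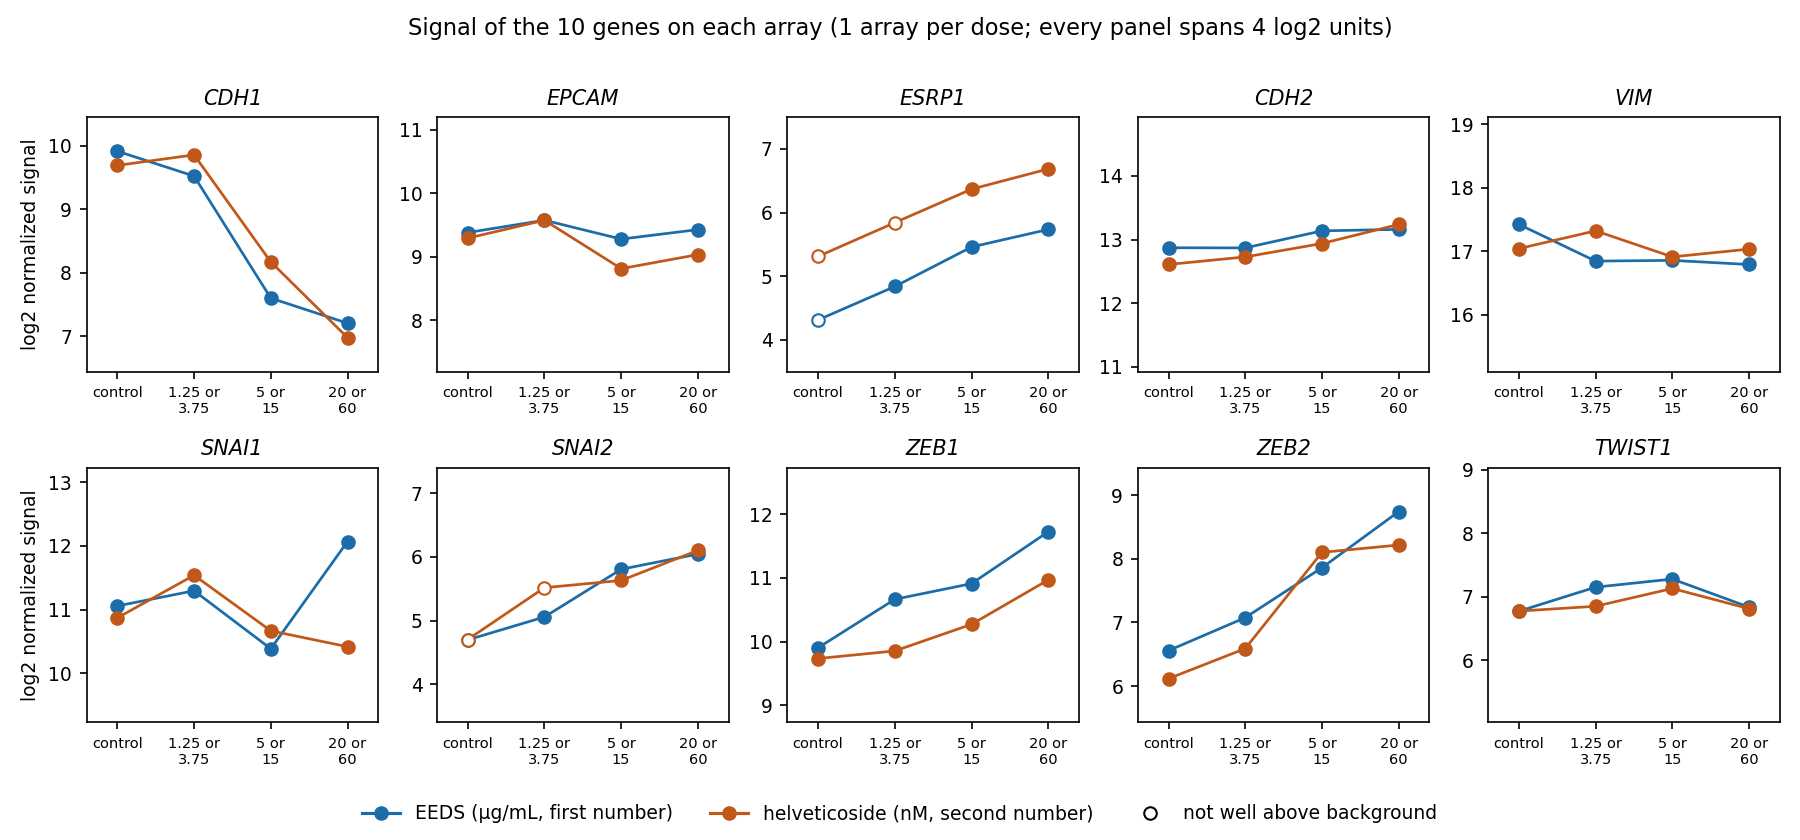
Log2 normalized signal (vertical) of each of the 10 genes on the control and at 3 rising doses of EEDS (blue) and helveticoside (orange), with 1 array per point and open circles where the probe was not well above background. Each panel spans the same range of 4 log2 units. CDH1 descends and ZEB1 and ZEB2 climb in both series, while EPCAM, VIM and TWIST1 stay within 1 unit of their controls.

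The ZEB factors were well above background on all arrays and higher at the top doses of both agents. ZEB1 had a signal of 957 on the EEDS control and of 1624, 1926 and 3390 at 1.25, 5 and 20 μg/mL. In the helveticoside series it was 851 on the control and 925, 1237 and 2006 at the rising doses. The order followed the dose in both series without exception, and the top doses were 3.54-fold and 2.36-fold higher than their controls. A second probe of ZEB1 had a signal of 206 on the EEDS control and 520 on the helveticoside control. The controls thus differed more by this probe than by the first. Against its own controls it gave log2 ratios of 1.97 at 20 μg/mL and 1.18 at 60 nM, beside 1.82 and 1.24 for the first.

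ZEB2, the paralog of ZEB1, had a signal of 94.2 on the EEDS control and 135, 232 and 428 at the rising doses. With helveticoside it was 69.4 on the control, 96.3 at 3.75 nM, 275 at 15 nM and 298 at 60 nM. All 8 arrays were well above background. The top doses were 4.55-fold higher with EEDS and 4.29-fold higher with helveticoside. The second probe had the same direction at the middle and top doses and smaller sizes, with log2 ratios of 1.85 at 20 μg/mL and 1.23 at 60 nM beside 2.18 and 2.10. At 3.75 nM it gave -0.02 against 0.47 for the first probe.

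Since ZEB1 and ZEB2 were higher together with both agents, the 250 bases before their start sites are shown, from RefSeq on GRCh38.p14. RefSeq's table lists 7 starts for ZEB1, of which the most upstream is given, and 1 for ZEB2. The ZEB1 stretch is chr10:31318167-31318416 on the plus strand and the ZEB2 stretch chr2:144520120-144520369 on the minus strand, both written 5′ to 3′. Capitals mark matches, on either strand, to the E-box CACCTG and to TGACG, the core of the cyclic AMP response element. 
ZEB1: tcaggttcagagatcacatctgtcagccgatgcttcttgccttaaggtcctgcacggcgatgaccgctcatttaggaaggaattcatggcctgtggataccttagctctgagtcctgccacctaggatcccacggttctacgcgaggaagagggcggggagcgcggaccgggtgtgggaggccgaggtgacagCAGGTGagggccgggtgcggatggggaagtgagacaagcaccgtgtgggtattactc
ZEB2: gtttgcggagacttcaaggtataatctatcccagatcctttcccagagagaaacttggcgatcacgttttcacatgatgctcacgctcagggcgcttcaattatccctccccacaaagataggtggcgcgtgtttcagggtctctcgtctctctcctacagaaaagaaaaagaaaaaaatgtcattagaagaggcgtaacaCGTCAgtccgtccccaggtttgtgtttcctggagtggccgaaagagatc
The ZEB1 stretch held 1 E-box (as its reverse complement) and the ZEB2 stretch 1 TGACG (likewise), and neither held the AP-1 motif TGANTCA. Over 35116 windows of the same length, 17.5% held CACCTG, 21.2% TGACG and 6.57% TGANTCA. These are matches of letters and not sites of binding. Of the other ZEB1 starts, 1 had 2 E-boxes, 1 had 2 TGACG and 4 had no match to these 3 motifs.

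SNAI1, a repressor of CDH1, was past 2-fold at the top dose of EEDS and not of helveticoside. Its signal was 2129 on the EEDS control, 2513 at 1.25 μg/mL, 1335 at 5 μg/mL and 4297 at 20 μg/mL. In the helveticoside series it was 1871 on the control, 2975 at 3.75 nM, 1624 at 15 nM and 1366 at 60 nM. In both series the lowest dose was higher than the control and the middle dose lower. At 20 μg/mL EEDS it was 2.02-fold higher, and at 60 nM helveticoside the log2 ratio was -0.45. The high value rests on 1 array and 1 probe.

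SNAI2 was dim and was not well above background on either control or at 3.75 nM. Its signal was 25.9 on the EEDS control and 33.3, 56.0 and 66.1 at the rising doses. With helveticoside it was 26.0 on the control and 45.8, 49.6 and 68.8 at the rising doses. The order followed the dose in both series. By the bound used here, SNAI2 was at least 2.55-fold higher with 20 μg/mL EEDS and at least 1.46-fold higher at 60 nM helveticoside. With EEDS the dim control stood at its own signal, so 2.55 is the plain ratio. Both values hold for this processing only. Over 8 alternatives the ratio ran from 1.32-fold to 2.73-fold with EEDS and from 1.26-fold to 2.65-fold with helveticoside.

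TWIST1 had a signal of 109, 142, 155 and 114 in the EEDS series and of 110, 115, 140 and 112 in the helveticoside series, by the probe that was well above background on all arrays. The middle dose was the highest in both series and the top dose was near the control, with log2 ratios of 0.06 and 0.04. Its second probe was not well above background on any array.

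Counted at 2-fold, 5 of the 10 genes were higher at 20 μg/mL EEDS (ESRP1, SNAI1, SNAI2, ZEB1 and ZEB2), beside 13.4% of all 19046 genes, and 1 was lower (CDH1), beside 14.6%. At 60 nM helveticoside, 4 were higher (ESRP1, SNAI2, ZEB1 and ZEB2), beside 10.8% of 19056 genes, and CDH1 was lower, beside 12.9%. At the middle doses, 4 genes were higher with EEDS (7.35% of all genes) and 2 with helveticoside (7.13%), and CDH1 was lower with both (8.53% and 8.11%). At the lowest doses none of the 10 genes was past 2-fold, where 3.71% and 4.21% of all genes were lower and higher with EEDS and 4.34% and 3.4% with helveticoside. Where dose and control both had to be well above background, 8 of the 10 genes could be counted. ZEB1, ZEB2 and, with EEDS, SNAI1 were then higher (15.0% of such genes with EEDS and 11.0% with helveticoside) and CDH1 lower (15.9% and 13.0%). With the signal as scanned, ESRP1, SNAI2 and SNAI1 were no longer past 2-fold, and 2 genes were higher at either top dose. The share of all genes is not given for that setting.

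**Figure D3:**
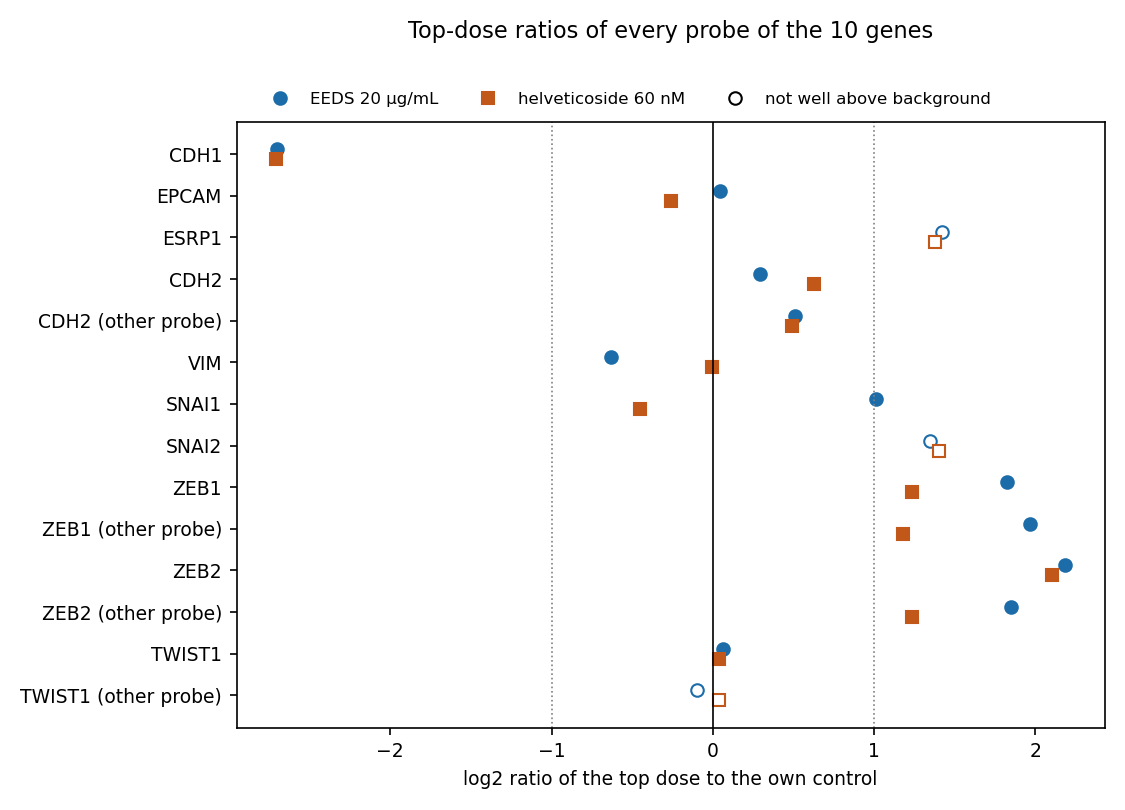
Log2 ratio of the top dose to its own control (horizontal) for each of the 14 probes of the 10 genes, with EEDS at 20 μg/mL as blue circles and helveticoside at 60 nM as orange squares. Open symbols mark probes not well above background on the control or on any array, and dotted lines mark 2-fold. CDH1 lies at -2.70 and -2.71, and the probes of ZEB1 and ZEB2 lie between 1.18 and 2.18.

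To ask whether a gene followed the dose, limma fitted each gene on all 8 arrays at once, giving each series its own starting level and its own slope per dose step. The scatter of the arrays about the lines, on 4 residual degrees of freedom, is the only source of error in this fit, and limma moderates it across genes. With 1 array per dose, this scatter mixes noise between arrays of pooled RNA with any departure from a straight line. It does not measure the spread between cultures. By the fit's adjusted p, which uses the Benjamini-Hochberg procedure over 19046 genes with a threshold of 0.05, 5 of the 10 genes were called for EEDS. ZEB1 rose by 0.57 per step (SE 0.08, adjusted p = 0.0180) and ZEB2 by 0.73 (SE 0.13, adjusted p = 0.0238). ESRP1 (adjusted p = 0.0210) and SNAI2 (adjusted p = 0.0340) were called in the rising direction, but both start from a control that was not well above background, so their slopes are not measured sizes. Neither was called with the signal as scanned, with normexp or with 75th percentile scaling. CDH1 fell by 1.0 per step (SE 0.21, adjusted p = 0.0365). Of all genes, 7.27% had a rising and 7.9% a falling EEDS trend.

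With helveticoside, 6 of the 10 genes were called in the same limma fit. ZEB2 rose by 0.78 per step (SE 0.13, adjusted p = 0.0263), ZEB1 by 0.41 (SE 0.08, adjusted p = 0.0377) and CDH2 by 0.21 (SE 0.04, adjusted p = 0.0417). ESRP1 (adjusted p = 0.0282) and SNAI2 (adjusted p = 0.0499) were again called as rising, with the control and the 3.75 nM array not well above background. SNAI2 was not called with the signal as scanned, with normexp or with 75th percentile scaling, and ESRP1 not with the last. CDH2 was not called with the signal as scanned, with normexp, with the mean over all probes or in the deposited table. CDH1 fell by 0.98 per step (SE 0.21, adjusted p = 0.0453). It was not called with quantile normalization within each series, and ZEB1 was not called in the deposited table. Of all genes, 5.48% had a rising and 5.83% a falling helveticoside trend. EPCAM, VIM, SNAI1 and TWIST1 had no called trend with either agent, and their limma slopes ran from -0.22 to 0.21 per step. CDH2 had a slope of 0.11 with EEDS (SE 0.04, adjusted p = 0.141).

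These calls depend on single arrays. Without the control or the 20 μg/mL array of EEDS, limma called none of the 10 genes for EEDS, and none of all genes. Without the 1.25 μg/mL array ZEB1 alone stayed called for EEDS, and without the 5 μg/mL, 15 nM or 60 nM array ESRP1, ZEB1 and ZEB2. Over all 19046 genes, 825 rising and 862 falling EEDS trends were called without the 1.25 μg/mL array, beside 1385 and 1504 with all arrays. They were 1112 and 1069 without the 5 μg/mL array, 459 and 437 without the 15 nM array, and 859 and 977 without the 60 nM array. For helveticoside, leaving out any 1 of the 8 arrays left at most 1 of the 10 genes called, which was ZEB2. Over all genes the called helveticoside trends then ranged from 0 to 733 rising and 0 to 742 falling, beside 1043 and 1110 with all arrays. With only the 4 arrays of a series, none was called for either agent.

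**Figure D4:**
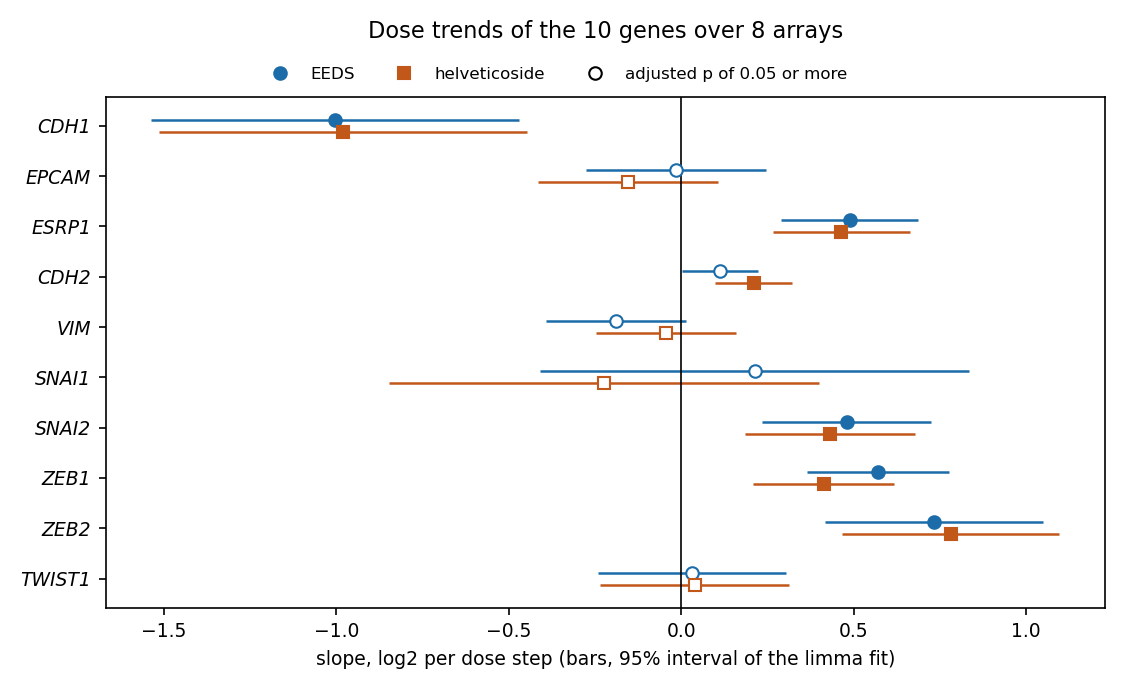
Slope per dose step on the log2 scale (horizontal) for the 10 genes with EEDS (blue circles) and helveticoside (orange squares), with 95% intervals of the limma fit over 8 arrays. Filled symbols have an adjusted p under 0.05. CDH1 lies near -1 with both agents, the slopes of ESRP1 and SNAI2 start from controls not well above background, and the intervals of SNAI1 are the widest.

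The difference between the slopes of the agents was tested in the same fit. Since the doses of an extract and of a pure compound are not matched, it compares dose steps and not concentrations, and agent and series cannot be told apart. None of the 10 genes and none of the 19046 genes had a called difference by limma, while 526 genes had an unadjusted p under 0.05, none of them a member (the lowest was 0.179, for CDH2). For CDH1 the helveticoside slope minus the EEDS slope was 0.02 with a 95% interval from -0.73 to 0.78. For ZEB1 it was -0.16 (-0.45 to 0.13) and for ZEB2 0.05 (-0.40 to 0.49). For SNAI1 it was -0.44 (-1.32 to 0.45), so a difference of 1 log2 unit per step was within the interval.

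The vehicle controls of the series give the only comparison without an agent. The helveticoside control minus the EEDS control is given on the log2 scale, by the probe that stood for each gene. It was -0.22 for CDH1, -0.17 for ZEB1, -0.44 for ZEB2, -0.26 for CDH2 and -0.38 for VIM. It was 0.00 for TWIST1 and -0.19 for SNAI1. CDH2, ZEB1 and ZEB2 had a second probe well above background. Its signals on the EEDS and helveticoside controls were 2046 and 2099, 206 and 520, and 76.5 and 78.6. Over all 19046 genes the SD of the difference between the controls was 0.65, and 0.48 over 11489 genes whose probe passed the background call on every array. The top-dose ratios of CDH1 and ZEB2 with either agent, of ZEB1 with either agent and of SNAI1 with EEDS were larger than 2 of these latter SDs, whereas those of EPCAM, CDH2, VIM and TWIST1 were not. This SD is a spread over genes between 2 arrays and not a replicate error of a gene.

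The genes whose log2 level over the 8 arrays was most like that of a member were sought among 11488 other genes well above background on all arrays, for CDH1, ZEB1 and ZEB2. For CDH1 they were PEBP1 (Pearson r = 0.997), KRT19 (0.997) and PTGR1 (0.996). KRT19 encodes a keratin of simple epithelia, and its top-dose log2 ratios were -1.90 and -1.72. For ZEB1 they were DNAJC25 (0.998), TDG (0.998) and KBTBD2 (0.994), and for ZEB2 TBC1D22B (0.990), TOLLIP (0.989) and PRB4 (0.983). The 8 points share doses and normalization, and 974 genes had an r above 0.9 with CDH1, 1198 with ZEB1 and 809 with ZEB2.

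The 10 genes were set beside 5 wider lists of the same biology. Counts at 2-fold in these lists include genes not well above background on 1 or both arrays. They stand beside 13.4% of all genes higher and 14.6% lower at 20 μg/mL EEDS, and 10.8% higher and 12.9% lower at 60 nM helveticoside. Of the 18 measured genes of cell junctions that partner the cadherins or belong to desmosomes, 2 were more than 2-fold higher (PKP2 and DSC2) and 3 lower (JUP, DSP and CDH6) at 20 μg/mL EEDS, and 2 higher and 1 lower (JUP) at 60 nM helveticoside. Their median log2 ratios were 0.19 and 0.29, beside 0.02 and 0.00 over all genes. JUP, the plakoglobin of adherens junctions and desmosomes, fell with EEDS by 0.69 per step (limma, adjusted p = 0.0177) and had log2 ratios of -2.01 at 20 μg/mL and -1.11 at 60 nM. DSP, the desmosomal plaque protein desmoplakin, fell with EEDS by 0.34 per step (limma, adjusted p = 0.0362). With helveticoside the slopes had the same sign and were not called. They were -0.38 for JUP (limma, adjusted p = 0.0676) and -0.30 for DSP (limma, adjusted p = 0.0547). The desmosomal genes PKP2 and DSC2 went the other way, with log2 ratios of 2.42 and 2.28 at 20 μg/mL. At 60 nM PKP2 had 2.99, and DSC2, not well above background on that control, was at least 1.57-fold higher. The catenin genes CTNNA1 (0.79 and 0.72), CTNNB1 (0.46 and 0.63) and CTNND1 (-0.48 and -0.15) had top-dose log2 ratios within 2-fold with both agents.

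Of 23 genes of epithelial identity, 4 exceeded their control by over 2-fold and 4 were lower at 20 μg/mL EEDS, and 4 higher and 3 lower at 60 nM helveticoside, with median log2 ratios of 0.04 and 0.01. The shares of all genes were 13.4% and 14.6% with EEDS and 10.8% and 12.9% with helveticoside. GRHL1, CDS1, MYO5B and PARD6B made up the higher genes with both agents. MYO5B, a myosin of apical recycling, had a log2 ratio of 2.42 at 20 μg/mL and was at least 3.30-fold higher at 60 nM. GRHL1, a grainyhead factor, had 1.63 at 20 μg/mL and was at least 2.11-fold higher at 60 nM. MUC1, a membrane mucin, was lower with both, with log2 ratios of -1.91 and -1.69. EHF, an epithelial ETS factor, was well above background on 2 of the 8 arrays only, and was at least 1.25-fold lower at 20 μg/mL. ESRP2, the paralog of ESRP1, had 0.17 and 0.12.

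Of 25 measured mesenchymal products, 3 were more than 2-fold higher (AXL, L1CAM and ITGA5) and 2 lower (ACTA2 and CD44) at 20 μg/mL EEDS, and 6 higher and 2 lower (FN1 and CD44) at 60 nM helveticoside. Of those 6, TNC, NCAM1 and L1CAM were not well above background on either array. The median log2 ratios were 0.09 and 0.28. Of all genes, 13.4% were higher and 14.6% lower with EEDS, and 10.8% and 12.9% with helveticoside. AXL, a receptor tyrosine kinase, had a signal of 9356, 14585, 32700 and 37075 in the EEDS series and of 8172, 9961, 25169 and 32175 in the helveticoside series, in the order of the doses. It rose by 0.71 and 0.73 per step (limma, adjusted p = 0.0231 and 0.0275). ITGA5, the fibronectin receptor subunit, rose by 0.54 and 0.61 per step (limma, adjusted p = 0.0133 and 0.0167). CD44, the hyaluronan receptor, fell by 0.46 and 0.40 per step (limma, adjusted p = 0.0278 and 0.0435). FN1, fibronectin itself, had log2 ratios of -0.69 at 20 μg/mL and -1.57 at 60 nM and no called trend.

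Of 16 other transcription factors tied to the mesenchymal state, 2 were higher and 5 lower by over 2-fold at 20 μg/mL EEDS, and 3 higher and 1 lower at 60 nM helveticoside, with median log2 ratios of -0.03 and -0.09. Beside these and the next counts, 13.4% of all genes were higher and 14.6% lower with EEDS, and 10.8% and 12.9% with helveticoside. SOX9, a developmental HMG box factor, had 1.11 and 1.77 and no called trend with either agent. Its signal was 206 on the EEDS control and 88.1 on the helveticoside control. At the rising helveticoside doses it was 285, 241 and 301. GSC was well above background on the controls alone and was at least 3.24-fold and 2.60-fold lower at the top doses. Of 19 measured regulators of SNAIL and ZEB proteins, 4 were more than 2-fold higher at 20 μg/mL EEDS, 3 at 60 nM helveticoside and none was lower, with median log2 ratios of 0.48 and 0.16. LATS2, a kinase that phosphorylates SNAIL, rose by 0.83 and 0.85 per step (limma, adjusted p = 0.0133 and 0.0167). AJUBA, a LIM protein that binds SNAIL, rose by 0.87 and 0.96 (limma, adjusted p = 0.0309 and 0.0302). FBXW7, a ubiquitin ligase subunit, rose with EEDS by 0.65 per step (limma, adjusted p = 0.0333).

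**Figure D5:**
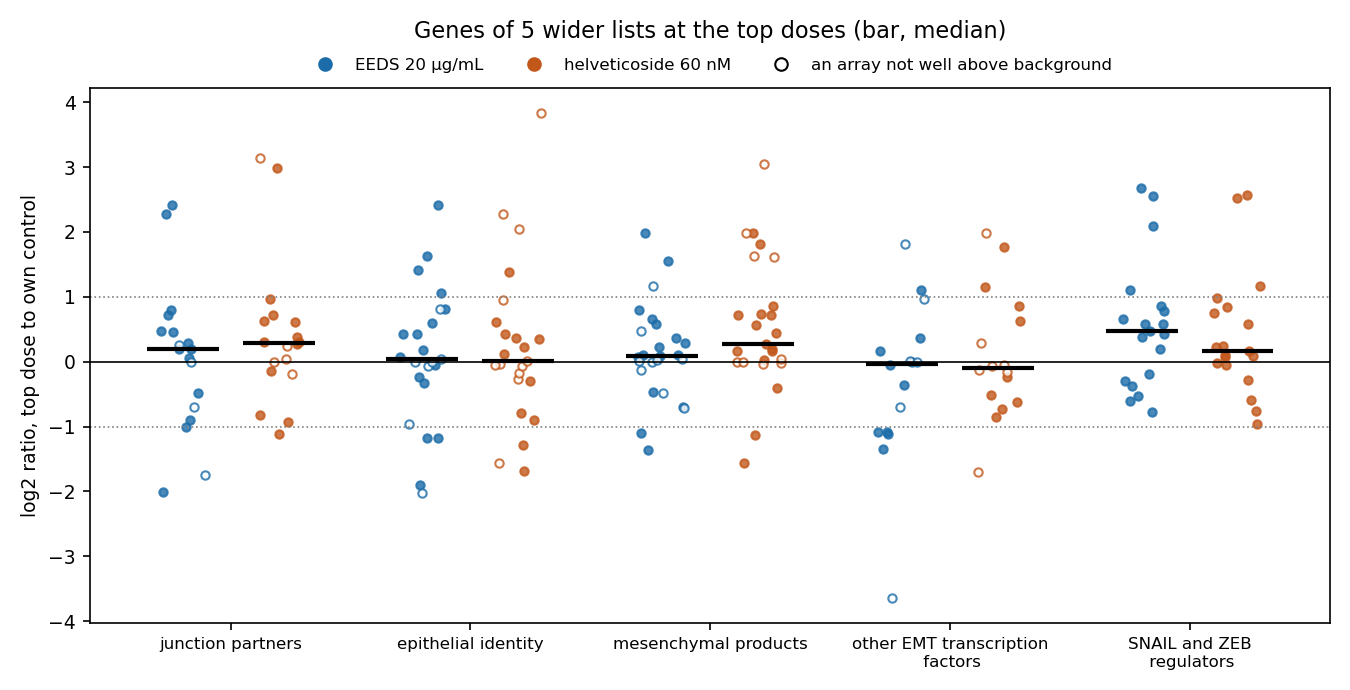
Log2 ratio of the top dose to its own control (vertical) for each measured gene of 5 lists, with EEDS in blue, helveticoside in orange, open symbols where 1 or both arrays were not well above background, and bars at the medians. Dotted lines mark 2-fold. Each list holds genes on either side of 0, and the medians lie between -0.09 and 0.48.

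Markers of the cell type were checked in the same arrays. Of 12 markers of lung epithelium and A549 cells, 8 to 10 were well above background on each array, the keratin genes KRT7, KRT8, KRT18 and KRT19 among them, while NKX2-1 and SFTPB were not on any. At 20 μg/mL EEDS 3 of the 12 were more than 2-fold lower (14.6% of all genes) and at 60 nM helveticoside 4 (12.9%). KRT18 and KRT19 fell with both agents by the limma trend. KRT7 had no called trend and was higher at the top doses, with log2 ratios of 0.62 and 0.53. The summed signal of the 12 was 1384748 on the EEDS control and 1141642 at 20 μg/mL, and 1269260 and 926720 in the helveticoside series. This sum is led by a few bright probes that differed in direction, with AKR1B10 at log2 ratios of -1.13 and -1.78. Of 8 fibroblast markers, COL1A1 and THY1 were well above background on all arrays and 4 (COL1A2, DCN, PDGFRA and PDGFRB) on none. The summed signal of the 8 ranged from 654 to 1284 in the EEDS series and from 521 to 922 in the helveticoside series, with no order by dose. CDH5 was the 1 endothelial marker of 4 well above background. Of 4 measured leukocyte markers, PTPRC and CD14 were, and CD14 was more than 2-fold lower at both top doses. The part of these markers in the results for the 10 genes was not tested.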

How the data were processed

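RNA from A549 cells was hybridized to 8 one-colour Agilent arrays (4 of EEDS, 4 of helveticoside). The deposited scanner files hold spot intensity, which the authors' Agilent software had background-subtracted, in green-channel columns, although the labels name Cy5. A deposited table of processed values was used only as an alternative.

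Control spots and outlier spots were left out, spots of a probe were averaged, and quantile normalization over the 8 arrays was followed by log2. Of 34127 probes, 24812 matched 19056 genes by unversioned accession in RefSeq's GRCh38.p14 table. The probe with the brightest mean stood for a gene. A gene was tested in a series where the median signal reached 1.4 times the local background on at least 1 array, and undetected values were floored. On the EEDS arrays 97.6% to 98.8% of probes reached this level, and on the helveticoside arrays 100%. The shares of all genes therefore include many genes not well above background. Slopes per dose step were fitted with limma 3.58.1 (trend and robust) in R 4.3.3 and adjusted by Benjamini-Hochberg over all genes. The scripts were tested on simulated data. The STEM clustering of the study was not run.

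All 10 genes were named. In each wider list the 3 genes with the largest mean absolute ratio at the top doses were named among those well above background on at least 1 array of each pair, and the 3 genes most like CDH1, ZEB1 and ZEB2. Other list genes were named after their values were seen. A result for 1 list gene is not reported here. The members and lists were chosen with earlier results of these data known. Alternatives covered background, scaling, filters, probe choice, controls, dose scale, the deposited table and leaving out each array. The number of arrays limits the precision.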

Additional observations from a re-analysis of the deposited data

How the results depend on the processing

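No alternative turned the direction of a called value, and ZEB1 and ZEB2 were more than 2-fold higher, and CDH1 lower, at both top doses under every alternative run. The number of the 10 genes more than 2-fold higher fell from 5 to 2 at 20 μg/mL EEDS and from 4 to 2 at 60 nM helveticoside with the median signal as scanned, with normexp, and in the deposited table. Counting only values well above background gave 3 and 2, and 75th percentile scaling gave 3 with EEDS. The share of all genes past 2-fold is given above only for the main processing and for values well above background. Called EEDS trends fell from 5 to 3 with the signal as scanned, with normexp, with 75th percentile scaling and among genes well above background on all arrays, and to 0 with the 4 arrays of the series alone. Called helveticoside trends fell from 6 to 2 with the deposited table and to 0 with the 4 arrays alone. Leaving out 1 array gave 0 to 5 EEDS trends and 0 to 1 helveticoside trends, and the calls over all genes fell as well. Over all genes, limma called no trend in the 4 arrays of a series alone, while 5341 (EEDS) and 4934 (helveticoside) had an unadjusted p under 0.05. Without the EEDS control or the 20 μg/mL array it called no EEDS trend (4617 and 3928 at an unadjusted p under 0.05), and without the 15 or 60 nM array no helveticoside trend (5041 and 3042). The cause was not tested.

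With 75th percentile scaling the median log2 ratio of all genes was -0.36 at 20 μg/mL and -0.18 at 60 nM, beside 0.02 and 0.00. In the wider lists it gave 4 higher and 0 lower junction genes with helveticoside, 4 lower mesenchymal products with EEDS and 1 with helveticoside, 1 higher other factor with EEDS, and 1 lower regulator with EEDS, with 5 higher and 1 lower for helveticoside. Among genes well above background on all arrays, 0 junction genes were higher with either agent, 1 epithelial identity gene was higher with either, 2 mesenchymal products were higher with helveticoside, and of the other factors 1 was higher with EEDS and 0 lower with helveticoside. This filter changes no ratio and lowers the counts only by leaving genes out, among them PKP2, DSC2, GRHL1, CDS1 and MYO5B. PKP2 was well above background on 7 arrays, including both controls and both top doses. No paired analysis was possible because each group held 1 array and the labels give no replicate numbers. ESRP1 and SNAI2 lay near background on the controls, so their ratios are bounds that hold for the main processing only.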
